A study of Mus musculus with 9 samples.

Results

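The genes described are 10 markers and regulators of thermogenic (beige and brown) fat other than Ucp1: Dio2, Elovl3, Cidea, Prdm16, Ppargc1a, Ppargc1b, Cox8b, Cox7a1, Otop1 and Kcnk3. They were chosen by name, and every probe set (a group of short probes for 1 transcript) that the array's annotation assigns to 1 of them was taken. This gave 21 of the 45037 probe sets tested, for 10 of 18193 genes. Each of 6 genes had 1 probe set, and Dio2, Kcnk3, Prdm16 and Ppargc1a had several, up to 5 for Ppargc1a.

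The study asked how primary fat cells respond to parathyroid hormone (PTH) and to parathyroid hormone-related protein (PTHrP), which act on the same receptor. Stromal-vascular cells, the mixed cells left after fat is digested and the floating adipocytes are removed, came from the inguinal fat of male C57BL6 mice aged 30 to 35 days. All 9 cultures shared the same differentiation: an induction of 2 days with insulin (5 µg/ml), rosiglitazone (1 µM), dexamethasone (1 µM) and isobutylmethylxanthine (0.5 µM), then the first 2 of these alone at the same doses, and plain medium from day 6. On day 8, 3 samples received PTH and 3 received PTHrP, each as the fragment of residues 1 to 34 at 100 ng/ml for 4 h. The 3 controls are named as controls only, with no statement of a vehicle in the labels. Their total RNA was hybridised to mouse Affymetrix arrays, 1 array per sample. The labels call the replicates biological, without saying whether they came from separate mice or cultures, so the p-values below measure only the spread between these samples, which may be technical.

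Thermogenic fat cells burn fuel to make heat. In inguinal fat, a white depot of rodents, such cells appear with cold or adrenergic stimulation and are called beige. Noradrenaline, and hormones whose receptors raise cyclic AMP, switch on Ucp1, which uncouples respiration in mitochondria, together with genes for local thyroid hormone activation, fatty acid elongation and mitochondrial biogenesis; rosiglitazone, an agonist of the nuclear receptor PPARγ that all groups received, is itself known to favour this programme in culture.

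The signals are the intensities as deposited, read as linear. They had a median of 48.2 to 52.6 per array, and the highest value on an array was 17113 to 18614. Changes are differences of log2(signal + 16) from limma, in which 1 unit is a doubling and low signals are understated; p-values are two-sided and adjusted over all 45037 probe sets by the method of Benjamini and Hochberg, with a threshold of 0.05. A probe set is called higher or lower where it passes that threshold. Signals of 2 different probe sets are not comparable, so a level is also given as its percentile among all probe sets of the control arrays. Adipoq and Fabp4, which define adipocytes, had control means of 13618 and 17944 and did not pass the test with either peptide. The Fabp4 mean lay within the range of the highest values on an array, so its test could hardly have shown a rise. The summed signal of 10 adipocyte markers was 55702 to 58410 in control arrays, 57732 to 60998 with PTH and 55710 to 59057 with PTHrP. In control arrays Adipoq and Fabp4 made up most of that sum. In such mixed cultures a change in the share of cells of 1 type and a change in RNA per cell cannot be told apart.

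Dio2, Elovl3 and Otop1 were the members with the clearest differences, and the other 7 genes had small or no measurable ones. With PTH, Dio2 rose by 0.94 and Elovl3 by 0.60 on the log2 scale. With PTHrP, Dio2 rose by 0.94 and Otop1 by 0.71. With the 6 peptide arrays as 1 group, Dio2, Elovl3, Otop1 and Prdm16 rose. No member fell with either peptide, and none differed between PTH and PTHrP beyond the threshold. Ucp1, the gene by which thermogenic fat is usually recognised, moved far more on the same arrays. Its signal was 24.0, 11.8 and 14.2 in the control arrays, 1520.3, 1789 and 2133 with PTH, and 1684, 1457 and 1716 with PTHrP (log2 changes 5.81, adjusted p = 8.1e-06, and 5.66, adjusted p = 1.0e-05, by limma). Its control mean of 16.7 is under the level of 29.0 taken here as dim (the 40th percentile of all probe sets), so the size of these changes depends on the pseudocount: it was 6.73 and 6.57 with 1, and 4.53 and 4.38 with 64.

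Of the 21 member probe sets, limma called 2 higher and 0 lower with PTH, where it called 2.70% of all probe sets in either direction and 1.34% higher. It called 2 higher and 0 lower with PTHrP, against 2.39% of all probe sets in either direction and 1.19% higher. With both peptides together it called 4 higher and 0 lower, against 4.13% and 2.00%. At an unadjusted p under 0.05 there were 7 member probe sets with PTH, 6 with PTHrP and 7 with both, all of them higher, where 7.06%, 6.65% and 7.87% of all probe sets were higher at that level. The 7 with PTH include the Kcnk3 probe set 1426058_a_at (unadjusted p = 0.0494, limma), which lay under the dim level in every group. The median change over the 21 was 0.16 with PTH and 0.10 with PTHrP, where the median over all probe sets was -0.0054 and -0.0006. Counted by the brightest probe set of each gene, the members were 2 of 10 with each peptide, against 3.79% of all genes with PTH and 3.38% with PTHrP. The 2 comparisons with control use the same control arrays, so they are given side by side and not as support for each other.

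**Figure D1:**
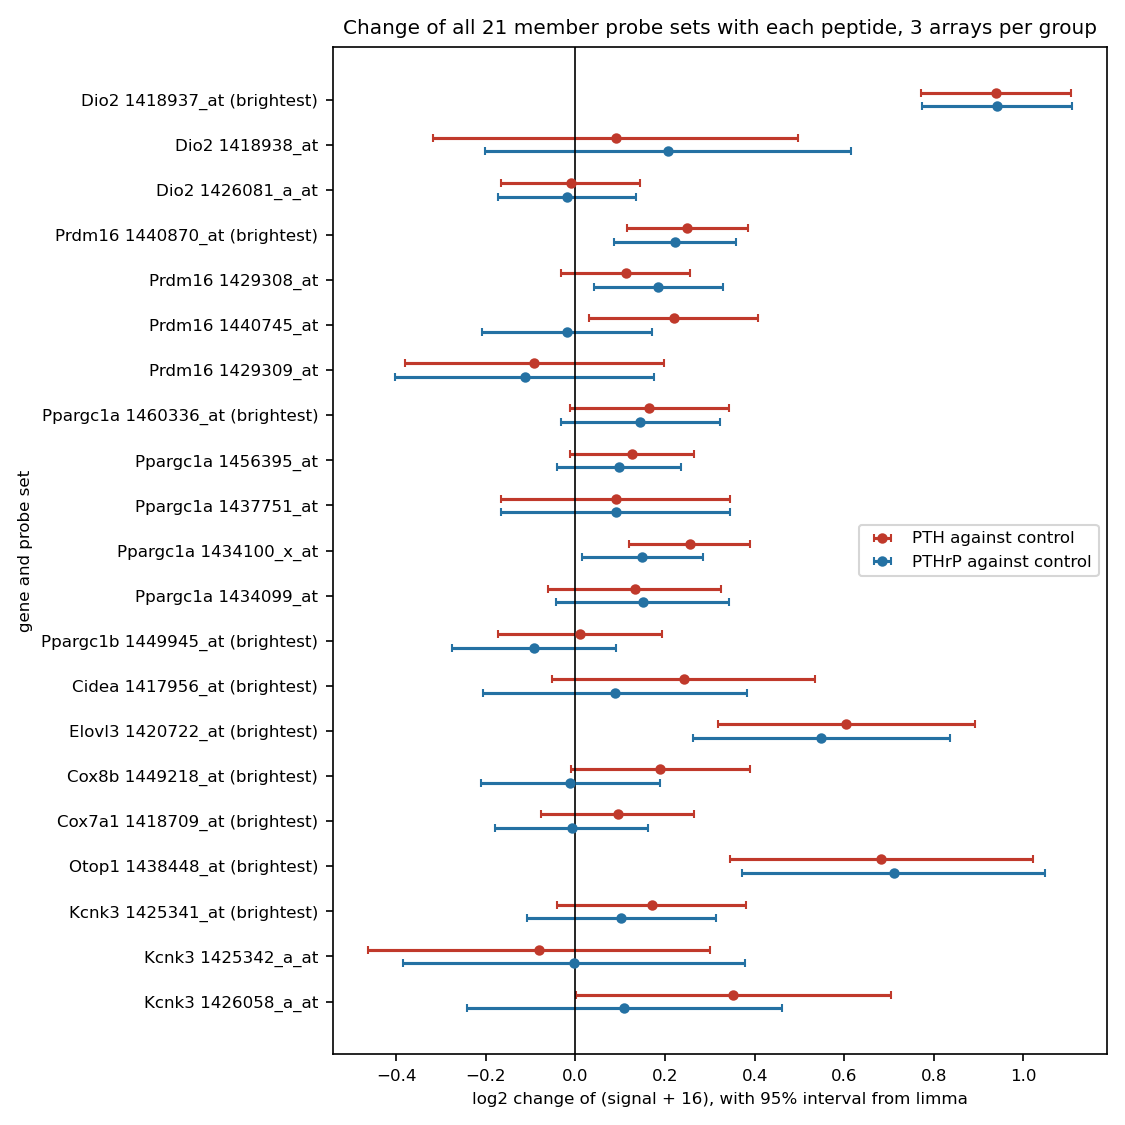
Log2 change of signal + 16 (horizontal axis) with its 95% interval from limma for each of the 21 member probe sets (vertical axis), PTH in red and PTHrP in blue, 3 arrays per group. The brightest probe set of Dio2 stands at 0.94 with both peptides, the single probe sets of Otop1 and Elovl3 lie between 0.55 and 0.71, and the other probe sets lie at 0.35 or less.

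Dio2 encodes the deiodinase that converts thyroxine into active thyroid hormone inside the cell, and it is a cyclic AMP-responsive gene of brown fat. Its promoter is shown because it holds the full cyclic AMP response element, TGACGTCA, the letters bound by the CREB family. The sequence is the 250 bases before the RefSeq start site, on mouse build GRCm38.p6 at chr12:90739039-90739288 on the minus strand, printed 5′ to 3′ with the element in capitals.
Dio2: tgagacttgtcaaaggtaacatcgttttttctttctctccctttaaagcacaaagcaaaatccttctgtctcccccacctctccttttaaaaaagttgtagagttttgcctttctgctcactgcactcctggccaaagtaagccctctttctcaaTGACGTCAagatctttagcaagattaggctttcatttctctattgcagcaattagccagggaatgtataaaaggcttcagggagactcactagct
The element begins 95 bases before the start site, and the letters TATAAA begin 30 bases before it. TGACGTCA occurred in 1.55% of the 32851 mouse promoter windows of this length, and TATAAA, searched on both strands as all motifs here were, in 12.4%. A match is a description of the letters and not a measured binding site.

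The brightest Dio2 probe set (1418937_at; Entrez gene 13371) read 42.7, 34.3 and 34.8 in the control arrays. It read 84.5, 82.5 and 90.8 with PTH and 84.2, 87.4 and 86.4 with PTHrP. All 6 peptide arrays lay above all 3 control arrays, and the PTH and PTHrP arrays covered the same range. The mean signal was 37.3 ± 4.71 (SD, n = 3) in control, 85.9 ± 4.35 with PTH and 86.0 ± 1.65 with PTHrP, a ratio of means of 2.31 for each peptide. The log2 change was 0.94 with PTH (SE 0.07, 95% interval 0.77 to 1.11, adjusted p = 0.000646, limma). With PTHrP it was 0.94 (95% interval 0.77 to 1.11, adjusted p = 0.000589, limma). It stayed past the threshold without any 1 of the 9 arrays, with an adjusted p of at most 0.00675 for PTH and 0.00545 for PTHrP. The control level was at the 44.5th percentile of all probe sets, so the gene started from a low signal, and the size of the change depended on the setting. Apart from leaving out arrays, it ran from 0.34 to 1.19 with PTH and from 0.38 to 1.19 with PTHrP. The highest came with a pseudocount of 1 and the lowest with the mean of the gene's probe sets.

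The other Dio2 probe sets did not show this difference, although 1418938_at was designed from the same transcript record as the brightest. Probe set 1418938_at read 32.6 to 38.1 in control, 28.1 to 50.5 with PTH and 35.0 to 58.7 with PTHrP, and the groups overlapped (changes 0.09 and 0.21, adjusted p = 0.887 and 0.701, limma). Probe set 1426081_a_at lay between 13.4 and 17.1 on all 9 arrays, under the dim level. When the 3 probe sets were averaged, the Dio2 change was 0.34 with PTH (adjusted p = 0.0594) and 0.38 with PTHrP (adjusted p = 0.0437). These p-values, by limma, were adjusted over 18193 genes. With either peptide the rise was seen in the brightest probe set only, which is also part of that mean.

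Otop1 encodes otopetrin, a proton channel of the plasma membrane that is abundant in brown fat. Its probe set (1438448_at; Entrez gene 21906) read 39.0, 18.9 and 30.9 in control, 52.4, 60.8 and 54.9 with PTH, and 53.4, 60.5 and 58.3 with PTHrP. Every peptide array was above every control array, but the controls varied widely, with an SD of 34.2% of their mean, the widest of the members' brightest probe sets. The mean was 29.6 ± 10.1 (SD, n = 3) in control, 56.0 ± 4.29 with PTH and 57.4 ± 3.60 with PTHrP. The change with PTHrP passed the threshold (0.71, 95% interval 0.37 to 1.05, adjusted p = 0.0495, limma), and the change with PTH, 0.68 (0.35 to 1.02), had an adjusted p of 0.0535. The call with PTHrP was kept only when control replicate 1 was left out (adjusted p = 0.0250) and lost without any other array (0.0510 to 0.136). The same array alone brought the change with PTH past the threshold (adjusted p = 0.0255 without it). With both peptides together the change was 0.70 (adjusted p = 0.0217), a call lost without control replicate 3, PTH replicate 2, PTH replicate 3 or PTHrP replicate 2 (0.0524 to 0.0739). Its control level, at the 40.3th percentile, lay close to the dim level, and the size of the change depended on the pseudocount: 0.99 with 1 and 0.38 with 64 for PTHrP. Otop1's promoter, also from RefSeq on GRCm38.p6, is at chr5:38277154-38277403 on the plus strand. It is shown in lower case for comparison, since neither TGACG, the common core of the cyclic AMP response element, nor TATAAA occurred in it, and 70.0% of its bases are G or C against 41.6% for Dio2.
Otop1: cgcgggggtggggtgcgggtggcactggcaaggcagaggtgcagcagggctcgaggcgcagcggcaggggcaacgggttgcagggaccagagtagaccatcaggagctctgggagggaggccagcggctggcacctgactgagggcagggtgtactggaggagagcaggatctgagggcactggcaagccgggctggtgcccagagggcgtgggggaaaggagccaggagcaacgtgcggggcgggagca
That these letters are absent says nothing about sequences outside this window.

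Elovl3 encodes an elongase of very long chain fatty acids that cold induces in brown fat. Its probe set (1420722_at; Entrez gene 12686) read 74.6, 53.7 and 77.1 in control, 97.1, 122 and 117 with PTH, and 116, 104 and 100.2 with PTHrP. All 6 peptide arrays lay above the highest control array. The mean was 68.4 ± 12.9 (SD, n = 3), 111.8 ± 13.0 and 106.7 ± 8.17 in the same order. The change was 0.60 with PTH (SE 0.13, 95% interval 0.32 to 0.89, adjusted p = 0.0457) and 0.55 with PTHrP (0.26 to 0.84, adjusted p = 0.0697), both by limma. The call with PTH was lost when any 1 of the 9 arrays was left out (adjusted p = 0.0660 to 0.169). With both peptides together the change was 0.58 (adjusted p = 0.0242), and that call was kept without control replicate 3, PTH replicate 1 or PTHrP replicate 3 and lost without any other array (0.0501 to 0.0662).

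**Figure D2:**
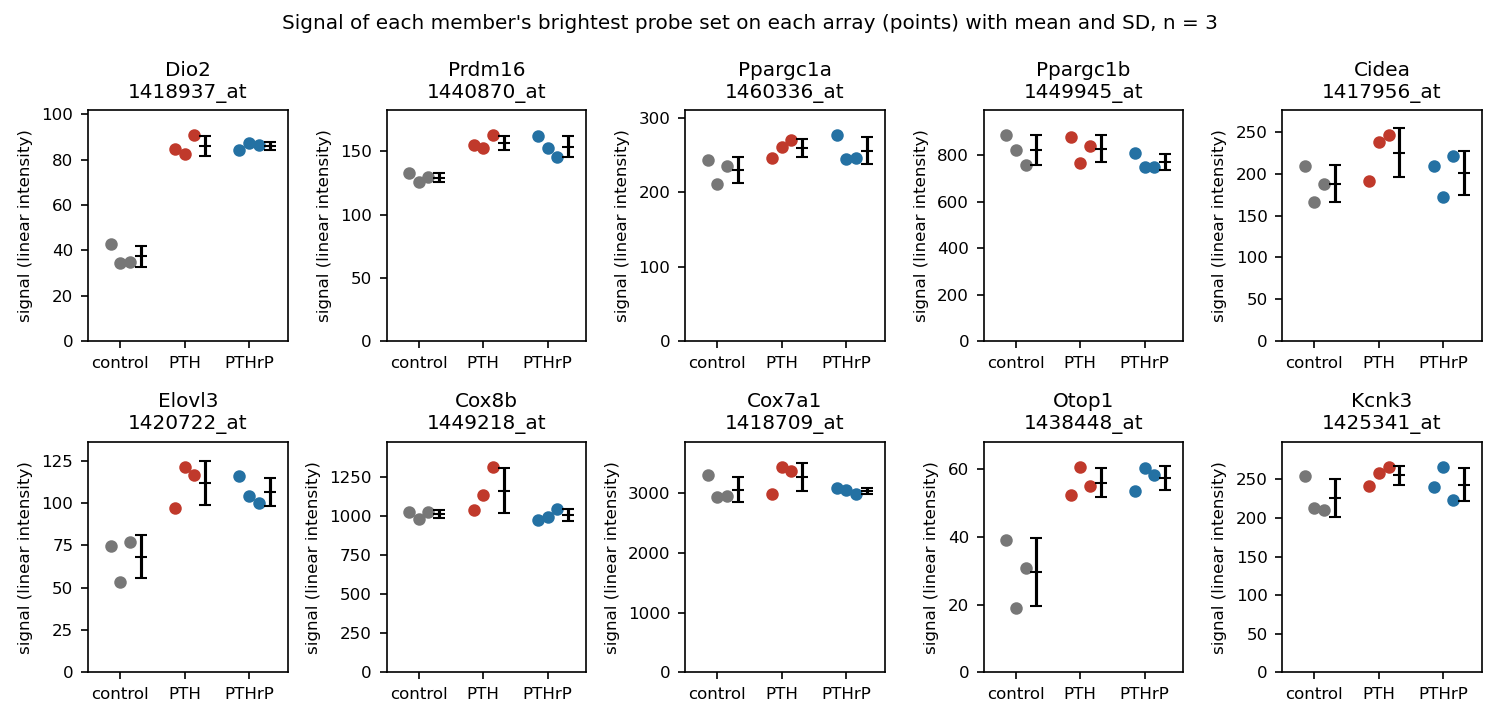
Deposited signal (vertical axis, linear intensity units, starting at 0 and scaled for each gene) of the brightest probe set of each of the 10 genes, with a point for each array and a black mark for the mean and SD of the 3 arrays in control, PTH and PTHrP. For Dio2, Elovl3, Otop1, Prdm16 and Ppargc1a the 6 peptide arrays lie above the 3 control arrays, while for Ppargc1b, Cidea, Cox7a1 and Kcnk3 the groups overlap.

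Among the transcriptional regulators, Prdm16 is a zinc finger factor that commits precursor cells to the thermogenic fate. Its brightest probe set (1440870_at; Entrez gene 70673) read 133, 126 and 129 in control, 155, 152 and 163 with PTH, and 162, 153 and 146 with PTHrP. The groups did not overlap with control, and the differences were small. The change was 0.25 with PTH (95% interval 0.11 to 0.39, adjusted p = 0.0721), 0.22 with PTHrP (0.09 to 0.36, adjusted p = 0.113) and 0.24 with both together (adjusted p = 0.0423), by limma. The last was kept without PTHrP replicate 3 (adjusted p = 0.0442) and lost without any other array (0.0770 to 0.142), and the mean of the 4 Prdm16 probe sets changed by 0.10 (adjusted p = 0.331). The other probe sets differed among themselves, although 1429308_at and 1429309_at were designed from the same transcript record. The changes were 0.11 with PTH and 0.19 with PTHrP for 1429308_at, 0.22 and -0.02 for 1440745_at, and -0.09 and -0.11 for 1429309_at, and limma called none of them, with an unadjusted p under 0.05 for 1440745_at with PTH and for 1429308_at with PTHrP.

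Ppargc1a encodes the coactivator that drives mitochondrial biogenesis and is itself induced by cyclic AMP in brown fat. Its promoter on GRCm38.p6, chr5:51567726-51567975 on the minus strand, is printed for comparison with that of Dio2. The capitals mark TGACGT, which lies here as its reverse complement, and it begins 50 bases before the start site.
Ppargc1a: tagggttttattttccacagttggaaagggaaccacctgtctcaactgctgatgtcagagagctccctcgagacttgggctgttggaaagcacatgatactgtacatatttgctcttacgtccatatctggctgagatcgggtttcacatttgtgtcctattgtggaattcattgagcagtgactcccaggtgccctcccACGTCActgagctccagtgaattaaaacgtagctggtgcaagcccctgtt
This shorter form, which is also contained in the Dio2 element, occurred in 6.47% of all windows, and its shared core TGACG in 17.8%. Promoters of 6 of the 10 genes were in the table used. Neither Prdm16, Cox7a1, Cox8b nor Otop1 held TGACG in its window, and the remaining 4 genes were not searched.

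The brightest Ppargc1a probe set (1460336_at; Entrez gene 19017) read 244, 210.3 and 236 in control, 246, 261 and 271 with PTH, and 277, 245 and 246 with PTHrP. The lowest peptide array was only just above the highest control array. The changes were 0.16 with PTH (95% interval -0.01 to 0.34, adjusted p = 0.383) and 0.14 with PTHrP (-0.03 to 0.32, adjusted p = 0.476), by limma. All 5 Ppargc1a probe sets had a positive difference with each peptide, from 0.09 to 0.25 with PTH and 0.09 to 0.15 with PTHrP, and none passed. These probe sets measure 1 gene and are not separate evidence; 1434100_x_at and 1434099_at were designed from the same transcript record. The largest was 1434100_x_at, which read 82.0, 92.0 and 82.2 in control, 103, 107 and 104 with PTH, and 98.4, 97.3 and 93.2 with PTHrP (changes 0.25, adjusted p = 0.0683, and 0.15, adjusted p = 0.303). The mean of the 5 changed by 0.15 with PTH (adjusted p = 0.218) and 0.13 with PTHrP (adjusted p = 0.337).

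Ppargc1b, a related coactivator of mitochondrial genes, read 888, 824 and 759 in control, 881, 766 and 840.0 with PTH, and 811, 752 and 748 with PTHrP. The 3 groups overlapped. The difference was 0.01 with PTH (95% interval -0.17 to 0.19) and -0.09 with PTHrP (-0.28 to 0.09), with adjusted p of 0.978 and 0.700 by limma. The interval with PTH leaves out changes as large as that of Dio2 or Elovl3.

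Cidea, a lipid droplet protein used as a marker of brown and beige cells, read 209.8, 166 and 188 in control, 192, 238 and 246 with PTH, and 209.8, 172 and 221 with PTHrP. The groups overlapped, and neither the change with PTH (0.24, 95% interval -0.05 to 0.54, adjusted p = 0.452) nor that with PTHrP (0.09, adjusted p = 0.843) passed limma's test. The interval with PTH is wide and does not separate no change from a change of the size seen in Prdm16.

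Cox8b and Cox7a1 encode the muscle and brown fat forms of small subunits of cytochrome c oxidase, the last enzyme of the respiratory chain. Both were already strong in control, Cox7a1 at the 96.7th and Cox8b at the 89.7th percentile of all probe sets. Cox8b read 1029, 985 and 1028 in control, 1037, 1136 and 1319 with PTH, and 975, 995 and 1049 with PTHrP. The PTH arrays were above the controls, the lowest by a narrow margin, and the PTHrP arrays overlapped with them. The changes were 0.19 with PTH (95% interval -0.01 to 0.39, adjusted p = 0.369) and -0.01 with PTHrP (-0.21 to 0.19, adjusted p = 0.979), by limma. Cox7a1 read 3292, 2926 and 2948 in control, 2989.6, 3441 and 3364 with PTH, and 3081, 3044 and 2979 with PTHrP. These groups overlapped, and the changes were 0.09 (95% interval -0.08 to 0.27) and -0.01. Since skeletal muscle also expresses both genes, its markers were read on the same arrays. The summed signal of 12 was 757 to 893 in control, 721 to 745 with PTH and 701 to 731 with PTHrP. Of the 12, 5 had a mean over all 9 arrays under the dim level, and Ckm and Mb had control means of 40.5 and 35.3. Acta1, the skeletal muscle actin, averaged 406 in control, 306 with PTH (-0.39, adjusted p = 0.0546) and 299 with PTHrP (-0.42, adjusted p = 0.0442, past the threshold with all 9 arrays and lost without any 1 of them). Acta1 therefore made up a large part of the summed signal and of its difference between groups. The part of skeletal muscle cells in the Cox8b and Cox7a1 levels was not tested.

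Kcnk3 encodes a background potassium channel that is high in brown fat. Its brightest probe set read 255, 213 and 209.9 in control, 242, 258 and 266 with PTH, and 239.9, 267 and 224 with PTHrP. The groups overlapped, with changes of 0.17 (95% interval -0.04 to 0.38) and 0.10 (-0.11 to 0.32) that limma did not call (adjusted p = 0.463 and 0.716). The other Kcnk3 probe sets, 1425342_a_at and 1426058_a_at, stayed at 10.5 or less on every array, under the dim level, and give no measured level.

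Read across arrays, the members did not form a single pattern. All 3 arrays of a treatment lay above all 3 controls for 8 of the 21 probe sets with PTH and for 7 with PTHrP, where 10.5% and 8.93% of all probe sets did so. All 6 peptide arrays lay above the controls for 6, the brightest of Dio2, Elovl3, Otop1, Prdm16 and Ppargc1a and the second Ppargc1a probe set 1434100_x_at, against 5.74% of all probe sets. Several of these are probe sets of 1 gene. The log2 change of Dio2 was 0.94 with each peptide, and the largest of any Prdm16 or Ppargc1a probe set was 0.25.

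PTH and PTHrP gave like values for most members. limma called 0 of the 21 member probe sets different between the peptides, where it called 0% of all 45037; at an unadjusted p under 0.05 there were 2 of 21 and 1911 of 45037, or 4.24%. For Dio2 the difference, PTH minus PTHrP, was -0.0021 and its 95% interval ran from -0.17 to 0.17. Over the 10 brightest probe sets it ran from -0.03 for Otop1 to 0.20 for Cox8b, with interval bounds between -0.37 and 0.45. Cox8b (95% interval 0.0016 to 0.40, unadjusted p = 0.0485) and the Prdm16 probe set 1440745_at (0.24, unadjusted p = 0.0197) were the 2, both higher with PTH, and both had an adjusted p of 1 by limma. A p that misses the threshold does not show that the peptides act alike: the 95% interval of the difference ran from -0.14 to 0.45 for Cidea and from -0.37 to 0.31 for Otop1.

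**Figure D3:**
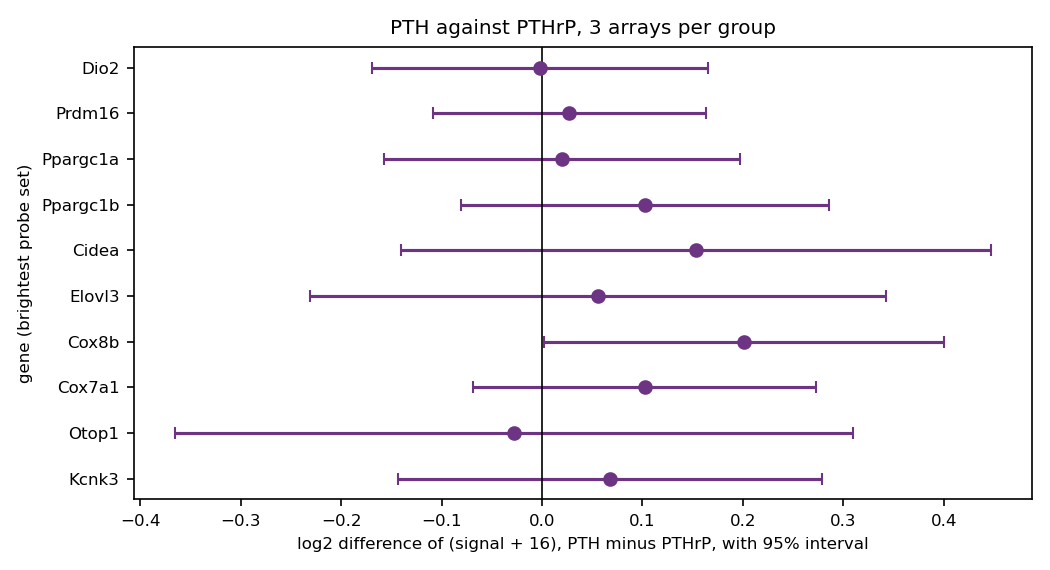
Difference of log2(signal + 16) between PTH and PTHrP (horizontal axis, PTH minus PTHrP) with its 95% interval from limma for the brightest probe set of each of the 10 genes, 3 arrays per group. The intervals of 9 genes include 0, and that of Cox8b begins at 0.0016.

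The calls differed in how far they depended on the setting. Dio2 kept an adjusted p under 0.05 in every alternative but the mean of its probe sets with PTH. Elovl3, Otop1 and Prdm16 lay near the threshold and passed or missed it by the choice of pseudocount, scaling and filter.

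**Figure D4:**
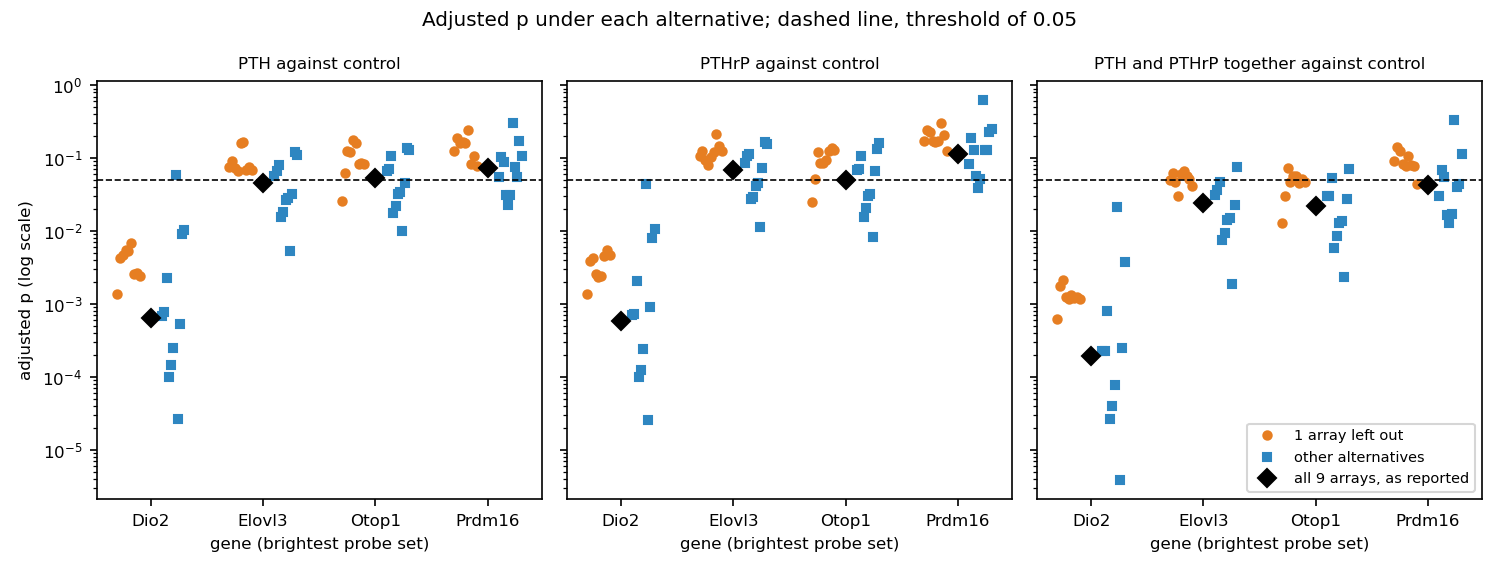
Adjusted p from limma (vertical axis, log scale, dashed line at 0.05) of Dio2, Elovl3, Otop1 and Prdm16 in 3 comparisons with control, as reported (diamonds), with 1 array left out (orange points) and under the other alternatives (blue squares). The Dio2 points lie under the line except 1 square with PTH at 0.0594, and those of the other 3 genes lie on both sides of it.

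The wider thermogenic programme was followed through lists of related genes, each read by its brightest probe set. Of 38 other brown and beige fat genes, 32 were measured and 12 of these had a mean over all 9 arrays under the dim level. With PTH, 2 rose and 1 fell, with a median change of 0.03, where limma called 3.79% of all genes. With PTHrP, 0 rose and 1 fell, with a median of 0.03, against 3.38% of all genes. At an unadjusted p under 0.05 there were 13 with PTH, 8 of them higher, and 9 with PTHrP, 5 of them higher. The shares of all genes at that level were 17.2% and 16.4%. With both peptides together 3 rose and 2 fell, where limma called 1042 of all 18193 genes. Nrg4, a growth factor secreted by brown fat, rose from 145 ± 7.75 to 191 ± 7.74 (SD, n = 3) with PTH (0.36, adjusted p = 0.0306, limma) and averaged 181 with PTHrP (0.29, adjusted p = 0.0767). Mpzl2, a cell surface protein enriched in brown fat, rose from 60.6 ± 2.17 to 98.4 ± 18.4 with PTH (0.57, adjusted p = 0.0347) and averaged 86.5 with PTHrP (adjusted p = 0.104). Ckb, the creatine kinase used in the creatine cycle of thermogenic fat, fell from 852 to 665 with PTH (-0.35, adjusted p = 0.0453) and to 631 with PTHrP (-0.43, adjusted p = 0.0215).

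Of 43 measured regulators of the thermogenic programme, limma called 0 with PTH (6 at an unadjusted p under 0.05, 5 of them higher). At that level 17.2% of all 18193 genes were counted with PTH and 16.4% with PTHrP, against which this and the unadjusted counts of the other lists are to be read. With PTHrP it called 1, Ebf1, an early factor of the fat lineage, which fell from 2397 to 1882 (-0.35, adjusted p = 0.0464) and averaged 1951 with PTH (adjusted p = 0.0771). The list's median change was 0.03 with PTH and -0.0025 with PTHrP, where the median over all genes was -0.0027 and -0.0050. With both peptides together 2 regulators rose and 1 fell, where limma called 1042 of all 18193 genes. Mecom, 1 of those that rose, changed by 0.35 (adjusted p = 0.0457, limma), and its dependence on the setting was not read. Of 10 measured genes of thyroid hormone metabolism, transport and receptors, the pathway of Dio2, limma called 0 with either peptide, with 1 and 2 at an unadjusted p under 0.05. With both peptides together it called 1 of them lower. Of 14 measured cytochrome c oxidase subunits, the complex of Cox8b and Cox7a1, it called 0 with either peptide, with 1 and 0 at an unadjusted p under 0.05.

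Among 27 measured paralogues of the members, 1 fell with each peptide, against 3.79% of all genes called with PTH and 3.38% with PTHrP. It was Elovl6, the elongase that makes saturated and monounsaturated long-chain fatty acids, whose signal went from 817 ± 56.9 to 598 ± 43.8 with PTH (-0.44, adjusted p = 0.0242) and 625 ± 23.1 with PTHrP (-0.38, adjusted p = 0.0464), by limma. Its direction was opposite to that of Elovl3. The other measured elongase genes, Elovl1, Elovl2, Elovl4, Elovl5 and Elovl7, were not called with either peptide, with changes from -0.16 for Elovl1 to 0.52 for Elovl7 with PTH. Elovl7 (adjusted p = 0.0928), Elovl2 and Elovl4 were under the dim level in every group. Neither Dio1, a deiodinase of liver and kidney, nor Otop2 and Otop3, relatives of Otop1, were above the dim level in any group, and none of the 3 was called with either peptide. With both peptides together, 2 of the 27 paralogues rose and 1 fell, where limma called 1042 of all 18193 genes.

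The 3 genes whose values over the 9 arrays, each set against its own control mean, were most like those of Dio2 were Rtn4rl2, Slc39a14 and Il15ra, among 18192 genes compared. Their root mean square differences from Dio2 on the log2 scale were 0.05, 0.06 and 0.07, and their changes with PTH were 0.94, 0.86 and 0.91. For Elovl3 they were Egln3 (0.08), Slc25a34 (0.10) and Tcim (0.10), and for Otop1 they were Egln3, Unc13a and Cda (0.13 to 0.14). The measure includes the treatment change and is a description only.

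Markers of other cells and of RNA quality were read beside these results. Of the smooth muscle and pericyte markers, 2 of 7 fell with each peptide, Myh11 from 285 to 215 with PTH and 204 with PTHrP, and Pdgfrb from 3723 to 2999 and 2929. Over all genes, limma called 3.79% in either direction with PTH and 3.38% with PTHrP. limma called 0 of 8 macrophage markers (1 at an unadjusted p under 0.05 with each peptide), 0 of 6 endothelial (2 and 0), 0 of 9 preadipocyte and fibroblast (0 and 0) and 0 of 4 neural markers (0 and 0). It also called 0 of 6 genes listed as markers of classical brown fat (4, 2 of them higher, and 1, lower). Of 6 listed for beige cells it called 0 (2, 1 of them higher, and 3, 1 of them higher). The genes listed for classical brown fat held Eva1a and not Mpzl2, which is given above among the other brown and beige fat genes. The counts for classical brown fat therefore leave out Mpzl2. By limma, Mpzl2 was called higher with PTH (adjusted p = 0.0347) and with both peptides together (adjusted p = 0.0254). It was not called with PTHrP (adjusted p = 0.104). With both peptides together limma called 1 classical brown fat marker lower and 0 beige markers, and 2 adipocyte markers higher and 1 lower. Over all 18193 genes it called 1042 in that comparison. Among adipocyte markers, Dgat2 rose with PTH (0.31, adjusted p = 0.0480) and Slc2a4 fell with PTH (-0.33, adjusted p = 0.0493) and PTHrP (-0.38, adjusted p = 0.0320). For actin, the ratio of signal at the 3′ end to that at the 5′ end, a measure of RNA integrity, was 1.45 to 1.51 in control, 1.59 to 1.65 with PTH and 1.52 to 1.61 with PTHrP, and the groups' split reached the smallest p that the exact two-sided permutation test over 84 splits of peptide against control allows (p = 0.0119). The same ratio for Gapdh was 0.950 to 0.985, 0.980 to 0.988 and 0.931 to 0.975 (exact p = 0.643). The part of these cells and of RNA integrity in the members' changes was not tested. Each call given here with 1 peptide for a named gene of these lists or markers was lost without at least 5 of the 9 arrays in turn, with an adjusted p of up to 0.173. When a gene's probe sets were averaged, the calls of Elovl6 (-0.35 with PTH, adjusted p = 0.128, and -0.20 with PTHrP, adjusted p = 0.430), Mpzl2 with PTH (0.24, adjusted p = 0.220) and Myh11 (adjusted p = 0.151 and 0.0933) were also lost. Mpzl2 with PTH changed by 0.38 with a pseudocount of 64.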

How the data were processed

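Labelled RNA of 9 cultures (3 control, 3 PTH, 3 PTHrP) was hybridised to mouse Affymetrix arrays. The values are the intensities of each probe set as the authors deposited them. How they were summarised, corrected for background and scaled is not stated in the labels, and the linear scale was taken from their range. Of 45101 probe sets, 64 array controls were left out. By the platform annotation, 34945 of the rest had 1 gene symbol, 932 several and 9160 none. Array number limits the precision, and no array was left out of the reported fit and no value was imputed.

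After log2(intensity + 16), limma 3.58.1 (R 4.3.3, statmod 1.5.0) fitted 1 mean per group over all 9 arrays. Contrasts were PTH, PTHrP and both together against control, and PTH against PTHrP. p-values were two-sided, with Benjamini-Hochberg adjustment over 45037 probe sets and a threshold of 0.05. The fit was checked on simulated data. Promoters came from a RefSeq table (GRCm38.p6), motifs were searched on both strands, and Python 3.11.15 with matplotlib 3.10.9 made the figures.

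The members, the gene lists and the settings were chosen with earlier results of these data known. Named were all member probe sets, Ucp1, the called genes of each list (at most the 6 largest), paralogues of called members, cell type markers that were called or define a type, and the 3 genes most like each called member. A gene on a list stands for its brightest probe set. Alternatives changed the normalization, pseudocount, filter, probe set summary, variance model, array weights, replicate block, groups fitted and arrays left out.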

Additional observations from a re-analysis of the deposited data

How the results depend on the processing

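With 3 arrays per group, counts near the threshold moved with the setting. Over all probe sets, 1217 were called with PTH, 1076 with PTHrP and 1860 with both together. In that order the counts were 2231, 1998 and 3093 of the 27022 that were not dim, 2214, 1996 and 3017 with a pseudocount of 64, and 2611, 2375 and 3384 with a trended, robust variance. Fitting only the 2 groups compared gave 695 with PTH and 365 with PTHrP and no value for both together. The mean of each gene's probe sets gave 815, 726 and 1109 of 18193 genes (4.48%, 3.99% and 6.10%). The replicate block gave 518, 467 and 949. Deviations of same-numbered arrays from their group means correlated at -0.20 to 0.17, over 0.1 in 2 of 9 pairs. They were not set against differently numbered arrays, so whether replicate numbers pair the samples was not settled. Leaving out 1 array gave 398 to 1090, 468 to 795 and 860 to 1588. Between the peptides the count was 0, with 1 at a pseudocount of 1 and 0 to 1 without 1 array.

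Of the 21 member probe sets, 2 were called with PTH. The count was 4 with array weights or the brightest probe set only, 5 without dim probe sets or with a pseudocount of 64, and 1 with median centring, a pseudocount of 1, only the 2 groups or the replicate block. With PTHrP, 2 were called. The count was 4 without dim probe sets and 1 with array weights, median centring, quantile normalization, a pseudocount of 1, only the 2 groups or the replicate block. With both together, 4 were called, with 2 at a pseudocount of 1 and 1 under the replicate block. Leaving out 1 array gave 1 to 2, 1 to 2 and 1 to 4. No called member, and no gene of another list that the text names as called with 1 peptide, reversed its direction in the alternatives run.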
